A study of Mus musculus with 6 samples.

Results

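The genes that write, read and erase DNA methylation were examined in RNA-seq of primary mouse embryonic fibroblasts (pMEFs), cells grown out of mouse embryos after the internal organs had been removed. The set was a fixed list of 10 genes, Dnmt1, Dnmt3a, Dnmt3b, Uhrf1, Uhrf2, Hells, Tet1, Tet2, Tet3 and Mbd2. They were chosen by name, with earlier results of these data known. All 10 were among the 17512 genes of the count table, and all 10 were among the 14773 genes that passed the filter on low counts. The cells came from 3 HAT1 WT lines, numbered 36, 47 and 78, and from 3 HAT1 KO lines, numbered 33, 41 and 72. All 6 lines were on the C57bl6 background and were cultured untreated in DMEM with serum and antibiotics, from mid-gestation embryos. HAT1 is the histone acetyltransferase that acetylates new histone H4, and the study asked how its loss changes chromatin. One library was made from each line, and the lines are the replicates.

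In mammals, methyl groups sit on cytosines that are followed by guanine, the CpG dinucleotide. Replication leaves the new strand unmethylated, and DNMT1 copies the pattern onto it, guided by UHRF1, which binds hemimethylated CpGs, and helped in packed chromatin by the remodeller HELLS. DNMT3A and DNMT3B place methylation where there was none, the TET enzymes oxidise methylcytosine on the way to its removal, and MBD2 binds methylated CpGs and brings a nucleosome remodelling and deacetylase complex to them. In fibroblasts and other somatic cells, this machinery keeps germline genes and repeats silent.

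Total counts lay between 67720628 and 98786746 per library. Levels are given as CPM, read counts relative to a library size that was adjusted by TMM normalization, with means ± SD over 3 lines. Hat1 itself was at 17.4, 23.0 and 20.1 CPM in the WT lines and at 10.2, 10.0 and 10.3 CPM in the KO lines, which was 50.4% of the WT mean (log2 fold change -0.99, SE 0.12, adjusted p = 0.0376 in edgeR's quasi-likelihood test), so the KO lines kept Hat1 reads. The edgeR adjusted p of Hat1 was over 0.05 in 9 of 15 alternative fits, among them each fit without 1 line (0.059 to 0.230), while its log2 fold change stayed between -1.26 and -0.87. KO line 72 stood apart from the other lines, with a mean correlation of 0.971 to them across genes against 0.983 to 0.987 for the rest. The summed level of 4 Y-linked genes was 183 CPM in WT line 36 and 159.5 CPM in WT line 47, but 2.33 CPM in WT line 78 and at most 0.12 CPM in the KO lines, so sex and genotype could be separated only through WT line 78. All 10 genes of a fibroblast list passed the filter, with summed levels from 57739 to 89814 CPM. Each line's level of a gene reflects both how many cells of a type were present and how much RNA each held, which bulk RNA cannot tell apart.

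Across the set, the 2 genes of replication-coupled maintenance Uhrf1 and Hells were at higher levels in every KO line than in any WT line, while Tet2 and Dnmt3a were at lower levels in every KO line than in any WT line. For the other 6 genes, Dnmt1, Dnmt3b, Uhrf2, Tet1, Tet3 and Mbd2, the lines of the genotypes overlapped. Over all tested genes, 9.59% had every KO line higher and 12.4% had every KO line lower, against 2 of the 10 genes in each direction here. With edgeR and adjustment over all tested genes, 0 of the 10 passed a threshold of 0.05 in either direction. The background for that rule was 0.0% of tested genes higher and 0.528% lower in KO. At an unadjusted p under 0.05, Uhrf1 and Hells were higher (background 5.88%) and Tet2 was lower (background 8.77%), in each case by edgeR. With DESeq2, the adjusted p of 1 gene, Uhrf1, was under the threshold on the higher side (DESeq2 background 1.7%), and 0 were on the lower side (4.86%). When a 1.5-fold size was required beside an unadjusted p under 0.05 in edgeR, 1 gene was higher, Uhrf1 (background 1.5%), and 0 were lower (background 4.62%). The median log2 fold change of the 10 was -0.07, against 0.0085 over all tested genes, with 3 genes on the positive and 7 on the negative side.

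**Figure D1:**
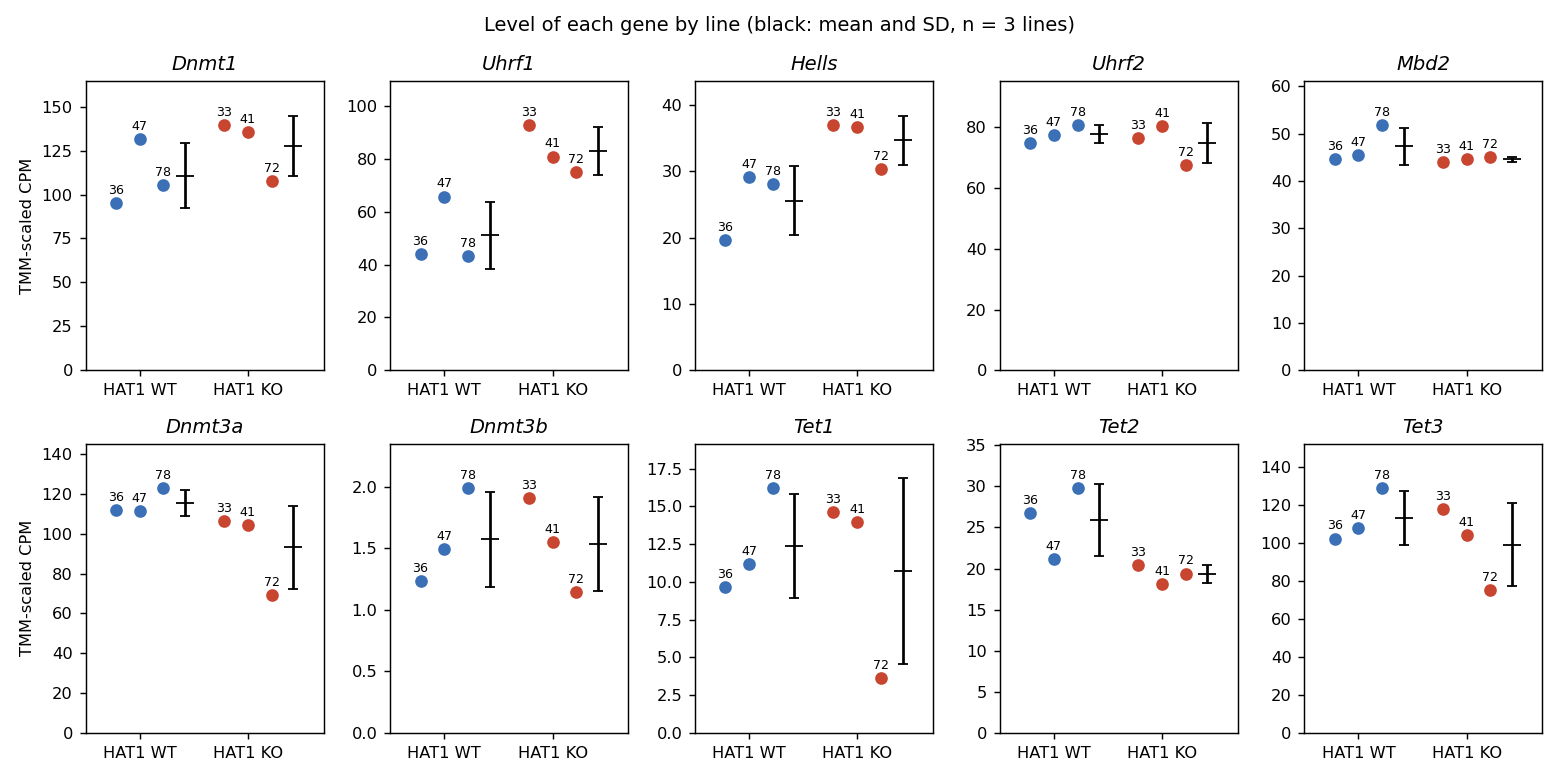
Level of each of the 10 genes in the 6 lines, in TMM-scaled CPM on axes that start at 0, with 1 numbered point per line (blue HAT1 WT, red HAT1 KO) and black bars for the mean and SD of 3 lines. The KO points of Uhrf1 and Hells lie above all WT points, and those of Tet2 and Dnmt3a lie below all WT points, with KO line 72 lowest for Dnmt3a, Tet1 and Tet3.

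Uhrf1 (ENSMUSG00000001228, chr17:56303321-56323486, plus strand, GRCm38) encodes the ubiquitin ligase that recognises hemimethylated CpGs and recruits DNMT1 to replicated DNA. WT lines 36, 47 and 78 had 44.2, 65.8 and 43.3 CPM of it, and KO lines 33, 41 and 72 had 92.9, 81.0 and 75.2 CPM, from 3333 to 8269 counts per library. The lowest KO line was thus above the highest WT line, WT line 47, which stood above the other WT lines. The mean went from 51.1 ± 12.7 to 83.0 ± 8.98 CPM (SD, n = 3 lines each), a fold of 1.63 with a 95% interval from 1.20 to 2.21. On the log2 scale the difference was 0.70 (SE 0.18), with an unadjusted p of 0.00793 and an adjusted p of 0.187 in edgeR, so it did not pass over all genes. The exact permutation test gave p = 0.1, the smallest that 3 lines against 3 allow. Left out in turn, no single line took the unadjusted p over 0.05, and the difference ranged from 0.60 to 0.93.

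Hells (ENSMUSG00000025001, chr19:38930915-38971051, plus strand) encodes a chromatin remodeller of the SNF2 family that is needed for methylation in heterochromatin. It was at 19.6, 29.2 and 28.1 CPM in the WT lines and at 37.0, 36.7 and 30.4 CPM in the KO lines. KO line 72 was only slightly above WT lines 47 and 78. Its unadjusted p was 0.0411 and its adjusted p 0.320 in edgeR, at a 95% interval of the log2 difference from 0.02 to 0.85. Leaving out lines singly, the unadjusted p stayed under 0.05 in 2 of 6 cases, without WT line 47 or without KO line 72, and without WT line 36 the log2 difference was 0.28.

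Dnmt1 (ENSMUSG00000004099, chr9:20907209-20959888, minus strand) encodes the maintenance methyltransferase. Its level was 95.2, 131 and 106 CPM in the WT lines and 139.5, 135 and 108 CPM in the KO lines. WT line 47 was above KO line 72, and the genotypes overlapped. The means of 111 ± 18.6 and 128 ± 17.2 CPM (SD, n = 3) differed by 0.20 on the log2 scale, with a 95% interval from -0.16 to 0.57 (edgeR, adjusted p = 0.586). Uhrf2 (ENSMUSG00000024817, chr19:30030513-30093722, plus strand), the paralogue of Uhrf1, was at 74.9, 77.5 and 80.7 CPM in the WT lines and at 76.5, 80.6 and 67.7 CPM in the KO lines. These values did not separate the genotypes, and the log2 difference of -0.05 had a 95% interval from -0.25 to 0.14, which leaves out a change of the size measured for Uhrf1.

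The ratio of the paralogues was therefore set against genotype, per kilobase of annotated exon so that levels of different genes can be compared. The log2 ratio of Uhrf1 to Uhrf2 was 0.25, 0.78 and 0.11 in the WT lines, against 1.29, 1.02 and 1.17 in the KO lines. Every KO line had a higher ratio than any WT line. Which paralogue was the more abundant depended on the length used, since with the longest coding transcript the log2 ratio was -0.78, -0.26 and -0.92 in WT, against 0.26, -0.01 and 0.13 in KO. Per kilobase of exon the plain ratio was 1.30 in WT and 2.23 in KO. The log2 difference was 0.78 with either length, with an exact permutation p of 0.1, which is the smallest possible, and 0.3 after adjustment over the 6 ratios and shares compared. The log2 ratio of Dnmt1 to the sum of Dnmt3a and Dnmt3b was 0.89, 1.35 and 0.88 in the WT lines, against 1.48, 1.48 and 1.74 in the KO lines. Here too the genotypes did not overlap (difference 0.53, exact permutation p = 0.1, adjusted p = 0.3).

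**Figure D2:**
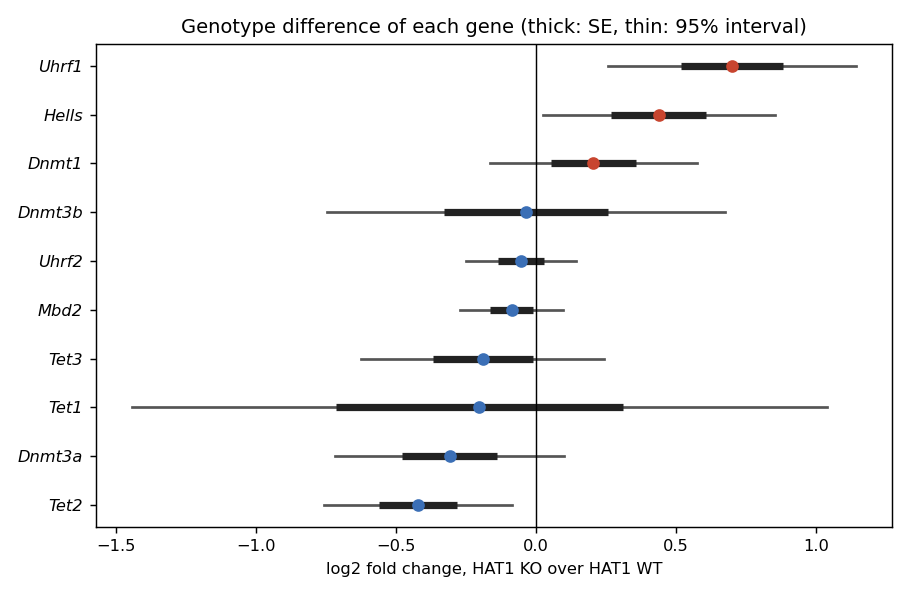
Log2 fold change of each of the 10 genes, HAT1 KO over HAT1 WT, from the edgeR fit, with a thick bar for the standard error and a thin bar for the 95% interval. The intervals of Uhrf1, Hells and Tet2 leave out 0, and that of Tet1 is the widest, from -1.44 to 1.04.

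The promoters of these maintenance genes are shown because Uhrf1, Hells and Dnmt1 ranked the lines in nearly the same order as genes of S phase did. The windows hold the 250 bases before each annotated start in RefSeq (GRCm38.p6), and 9 of the 10 genes had at least 1 window, 14 windows in all, Mbd2 not. The windows were searched on both strands for 4 letter strings of the kind bound by E2F factors, which drive genes of S phase, TTTGGCGC, TTTGCCGC, TTTCGCGC and TTTCCCGC. These letters were chosen after the windows had been seen, so the shares below cannot test whether the set holds more of them than other genes. A string was found in 1 window each of Uhrf1, Hells and Dnmt1, 3 of the 14 windows (21.4%), against 611 of 32851 windows in all (1.86%). By gene this was 3 of 9 (33.3%), against 583 of 27025 (2.16%), and 5 of 15 genes of the S phase list (33.3%). Each of the 4 strings holds a CpG, and the median window of the set held 22 CpGs, against 6 over all windows. The share over all windows is thus not a background matched for CpGs. The other window of Uhrf1 and the other 2 windows of Dnmt1 held none. A match describes the letters and does not show a binding site. The 30 bases around each match follow, with the matched string in capitals, at 185, 62 and 219 bases before the transcript start to which the window of Uhrf1, Hells and Dnmt1 belongs, on the plus strand of chr17:56304117-56304146 and chr19:38930917-38930946 and on the minus strand of chr9:20952824-20952853. All 3 lie inside the span of their gene given in GENCODE, which holds transcripts with earlier starts, and the strings of Hells and Dnmt1 lie in bases annotated there as exon.
Uhrf1: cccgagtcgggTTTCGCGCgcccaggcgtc
Hells: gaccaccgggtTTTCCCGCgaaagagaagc
Dnmt1: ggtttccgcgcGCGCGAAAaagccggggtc

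The whole of this Uhrf1 window, chr17:56304063-56304312 on the plus strand, is shown because Uhrf1 had the smallest p of the set, with the same string in capitals. The window of the earlier start, chr17:56303087-56303336, held 10 CpGs and no string, against 30 CpGs in the one shown, and the counts do not tell which start was used.
Uhrf1: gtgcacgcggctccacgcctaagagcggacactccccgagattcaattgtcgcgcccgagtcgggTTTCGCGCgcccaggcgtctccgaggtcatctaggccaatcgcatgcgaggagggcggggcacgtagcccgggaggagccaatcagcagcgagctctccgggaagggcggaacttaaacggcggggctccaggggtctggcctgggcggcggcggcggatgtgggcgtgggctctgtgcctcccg

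Genes of DNA replication were also at higher levels in the KO lines. The S phase list held 18 genes, the MCM helicase and ribonucleotide reductase among them, and its summed level was 632, 862 and 686 CPM in the WT lines and 1098, 1016 and 908 CPM in the KO lines. The list was chosen with earlier results of these data known. Of the 18, 11 were higher at an unadjusted p under 0.05 (background 5.88%) and 0 were lower (8.77%). Their median log2 fold change was 0.47, and 0 passed after adjustment over all genes in edgeR. With DESeq2, 14 were higher at an unadjusted p under 0.05. In edgeR this number was 5 without WT line 36, 6 without WT line 78, 6 without KO line 33 and 7 without KO line 41, and it was 4 with lane and 1 with the Y-linked level in the model. Rrm2, a subunit of ribonucleotide reductase, had the smallest p, at 59.1 ± 12.9 CPM in WT and 115 ± 24.1 CPM in KO (SD, n = 3; log2 fold change 0.96, edgeR adjusted p = 0.124). Of 12 mitosis genes, 6 were higher at an unadjusted p under 0.05 (background 5.88%), with a median of 0.68. Of these 12, 0 passed after adjustment in edgeR, and 1, Top2a, was higher in every KO line than in any WT line (background 9.59%). Ranked by the mean log2 CPM of the S phase list, the lines ran from WT 36 (4.35) over WT 78 (4.48), WT 47 (4.79), KO 72 (4.87) and KO 41 (4.99) to KO 33 (5.15). Hells had the same order, Uhrf1 had it with WT lines 36 and 78 exchanged, and Dnmt1 had it with WT line 47 above KO line 72. With the S phase score as a term beside genotype in the edgeR fit, the log2 difference was 0.10 for Uhrf1 (adjusted p = 0.890), -0.039 for Hells (adjusted p = 0.974) and -0.30 for Dnmt1. The KO lines held the 3 highest scores, so the score and genotype were largely confounded in that fit.

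**Figure D3:**
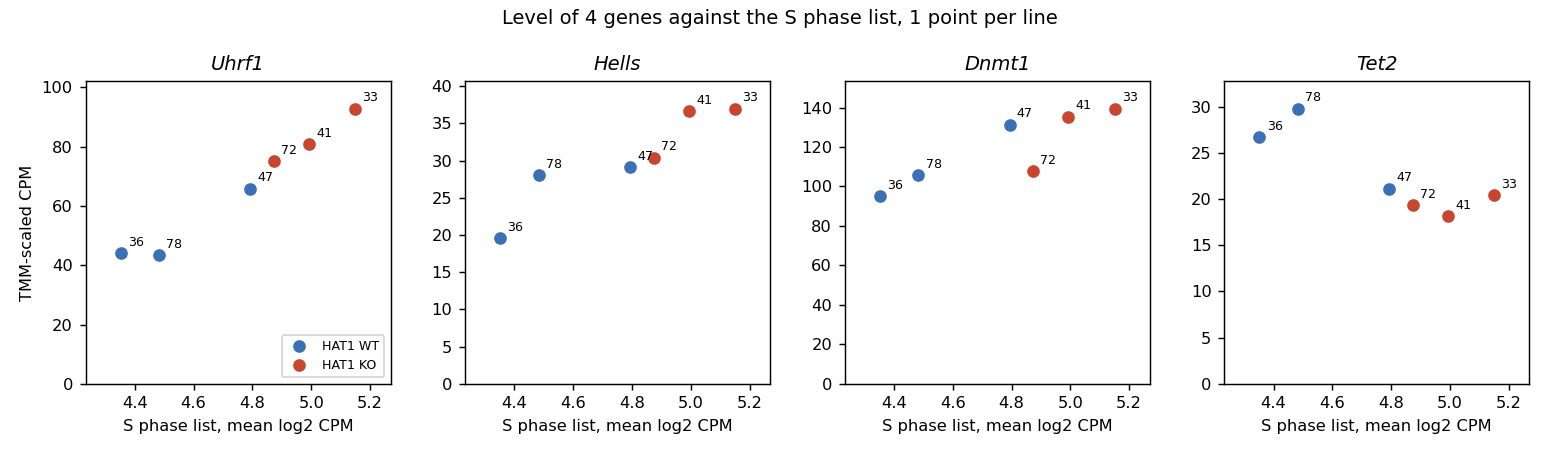
TMM-scaled CPM of Uhrf1, Hells, Dnmt1 and Tet2 against the mean log2 CPM of the 18 S phase genes, with 1 numbered point per line (blue HAT1 WT, red HAT1 KO). Uhrf1 and Hells are higher in lines with a higher S phase score, Tet2 is highest in the 2 lines with the lowest scores, and the KO lines hold the 3 highest scores, from 4.87 to 5.15.

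The genes most like Uhrf1 over the 6 lines were Fanca, Spc25, Mastl, Usp10 and Timm8a1, with Pearson correlations of log2 CPM from 0.996 to 0.999, members left out. Fanca is a Fanconi anaemia repair gene, Spc25 a kinetochore component and Mastl a mitotic kinase. Fanca was at 7.37 ± 1.85 CPM in WT and 12.3 ± 1.33 CPM in KO (SD, n = 3). The correlations describe lines that also share genotype.

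Dnmt3a (ENSMUSG00000020661, chr12:3806007-3914443, plus strand), a de novo methyltransferase, was at 112, 112 and 123 CPM in the WT lines and at 106, 104 and 69.3 CPM in the KO lines. Every KO line was lower than every WT line, but KO lines 33 and 41 lay just below the WT lines and KO line 72 far below. The means were 115 ± 6.55 and 93.3 ± 20.8 CPM (SD, n = 3), with a log2 difference of -0.31 and a 95% interval from -0.72 to 0.10 (edgeR, adjusted p = 0.461). Without KO line 72 the log2 difference was -0.12, so this line set most of its size. Exons of Dnmt3a and of an antisense gene in the table, Dnmt3aos, share 133 bases, and whether reads were counted by strand was not stated. Dnmt3b (ENSMUSG00000027478, chr2:153649450-153687730, plus strand), the second de novo enzyme, was at 1.23, 1.49 and 1.99 CPM in the WT lines and at 1.91, 1.55 and 1.14 CPM in the KO lines, from 88 to 197 counts. The ranges covered each other almost fully, and the log2 difference of -0.04 had a 95% interval from -0.75 to 0.68. Per kilobase of exon, Dnmt3a exceeded Dnmt3b by 23.0 times in WT and 18.7 times in KO, and the log2 ratio did not separate the genotypes (exact permutation p = 0.2, adjusted p = 0.4).

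Tet2 (ENSMUSG00000040943, chr3:133463679-133545139, minus strand) encodes a dioxygenase that oxidises methylcytosine and lacks the CpG-binding CXXC domain of TET1 and TET3. Its level was 26.7, 21.1 and 29.8 CPM in the WT lines and 20.5, 18.2 and 19.4 CPM in the KO lines, from 1228 to 2950 counts. The highest KO line, 33, lay just below the lowest WT line, 47. The means were 25.9 ± 4.39 and 19.3 ± 1.15 CPM (SD, n = 3), with a log2 difference of -0.42 (SE 0.14), a 95% interval from -0.76 to -0.09, an unadjusted p of 0.0215 and an adjusted p of 0.259 in edgeR. Leaving out lines singly, the unadjusted p stayed under 0.05 in 3 of 6 cases, without WT line 47, KO line 33 or KO line 72. With the S phase score in the model, the log2 difference was -0.15 (edgeR adjusted p = 0.908).

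The RefSeq window of Tet2, chr3:133544391-133544640 on the minus strand, is printed with its CpGs in capitals, as it held 51 CpGs, more than 99.9% of all windows, where the median window held 6 and the median window of the set held 22. No methylation was measured here, so the letters show only where methylation could be placed.
Tet2: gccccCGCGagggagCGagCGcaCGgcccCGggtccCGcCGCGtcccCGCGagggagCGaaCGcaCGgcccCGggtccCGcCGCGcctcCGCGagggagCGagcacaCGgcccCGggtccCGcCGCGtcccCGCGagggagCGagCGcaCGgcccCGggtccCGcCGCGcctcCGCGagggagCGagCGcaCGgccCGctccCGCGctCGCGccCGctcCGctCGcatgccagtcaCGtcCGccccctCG

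Tet1 (ENSMUSG00000047146, chr10:62804570-62908996, minus strand) was at 9.67, 11.2 and 16.2 CPM in the WT lines and at 14.6, 14.0 and 3.64 CPM in the KO lines. KO line 72 alone lay below the WT range, and the log2 difference was -0.20 with all lines but 0.22 without KO line 72, so its direction depended on that line. Tet3 (ENSMUSG00000034832, chr6:83362373-83459084, minus strand) was at 102, 108 and 129 CPM in the WT lines and at 118, 104 and 75.2 CPM in the KO lines. Its genotypes overlapped, and the log2 difference of -0.19 was -0.014 without KO line 72. Neither passed the test (edgeR adjusted p of 0.888 for Tet1 and 0.674 for Tet3).

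Of the summed TET level per kilobase, Tet3 made up 73.5%, 76.6% and 73.3% in the WT lines, against 76.6%, 75.9% and 76.5% in the KO lines, and was the main TET transcript in each line. Tet2 made up 19.0%, 14.9% and 16.8% in the WT lines, against 13.2%, 13.1% and 19.5% in the KO lines. KO line 72 had the highest Tet2 share and, at 4.0%, the lowest Tet1 share, where the other 5 lines had Tet1 at 7.50% to 11%. None of the shares separated the genotypes (exact permutation p of 1, 0.6 and 0.3 for Tet1, Tet2 and Tet3; adjusted over the 6 ratios and shares 1, 0.72 and 0.45).

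**Figure D4:**
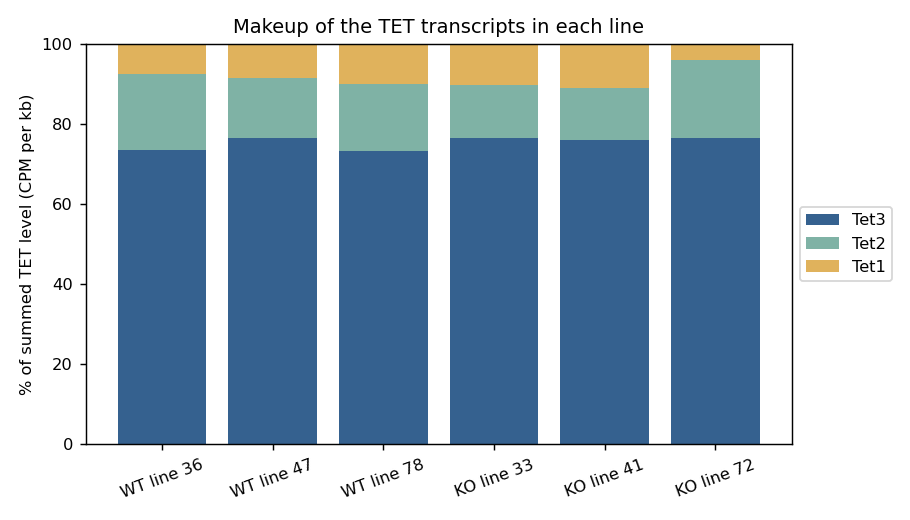
Share of Tet1, Tet2 and Tet3 in their summed level per kilobase of exon, in percent, as stacked bars from 0 for each of the 6 lines. Tet3 takes from 73.3% to 76.6% in every line, and KO line 72 has the smallest Tet1 share, 4.0%.

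Mbd2 (ENSMUSG00000024513, chr18:70568189-70626131, plus strand), the methyl-CpG reader of the set, was at 44.6, 45.6 and 51.8 CPM in the WT lines and at 44.0, 44.6 and 45.0 CPM in the KO lines. The KO lines lay within 1 CPM of each other, and the genotypes overlapped. The log2 difference was -0.09 with a 95% interval from -0.27 to 0.10 (edgeR, adjusted p = 0.644).

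Ordered by level per kilobase of exon in the WT lines, Dnmt1 (15.01 ± 2.52 CPM per kilobase, SD, n = 3), Mbd2 (14.7 ± 1.22) and Uhrf1 (12 ± 2.99) came first, with overlapping neighbours. Uhrf2 (9.05), Dnmt3a (6.94), Tet3 (6.77) and Hells (3.55) followed, of which Dnmt3a and Tet3 overlapped. Tet2 (1.53), Tet1 (0.80) and Dnmt3b (0.31) were lowest. In the KO lines Uhrf1 (19.5 ± 2.11) came before Dnmt1 (17.3 ± 2.33), with overlap, and Mbd2 (13.9) was the third, while Tet3, Dnmt3a and Hells overlapped as neighbours and so did Tet1 and Dnmt3b. Dnmt1 lay above 82.1% of tested genes on this scale, Tet2 above 30.3% and Dnmt3b above 15.4%. With the longest coding transcript as length, the first 4 in WT were Mbd2, Uhrf2, Dnmt1 and Uhrf1, so the order of these 4 depends on which length is used.

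Sequencing lane and genotype were partly mixed, since WT line 36 alone was run on lane 8. Within lane 6, WT line 47 against KO lines 33 and 72, the log2 difference was 0.35 for Uhrf1, 0.21 for Hells and -0.09 for Tet2. Within lane 7, WT line 78 against KO line 41, it was 0.90, 0.39 and -0.71. The directions of these 3 were thus the same in both lanes, with smaller differences in lane 6. Against WT line 78 alone, the WT line nearly without Y-linked reads, the KO lines differed by 0.94 for Uhrf1, 0.31 for Hells and -0.62 for Tet2. With lane as a term, Uhrf1 differed by 0.58 (edgeR adjusted p = 0.751), Hells by 0.28 (0.785) and Tet2 by -0.36 (0.808), and of the 3 the unadjusted p of Uhrf1 alone was under 0.05.

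A myeloid list was at 4969 to 5370 CPM, summed, in the WT lines and at 2423 to 2953 CPM in the KO lines. At an adjusted p under 0.05 in edgeR, 10 of its 12 genes were lower (background 0.528%). That number was 0 without WT line 36, WT line 47, WT line 78, KO line 33 or KO line 41, and 0 with lane, the Y-linked level or the S phase score in the model, while 10 to 12 of the 12 were lower at an unadjusted p under 0.05 in every alternative. Cd53, a leukocyte tetraspanin, had the smallest p, at 81.6 ± 3.45 and 45.0 ± 3.01 CPM (SD, n = 3; log2 fold change -0.86, edgeR adjusted p = 0.0320), and its adjusted p was over 0.05 in 8 of 15 alternatives, up to 0.758, at log2 fold changes from -0.93 to -0.75. Endothelial genes summed to 13.1 to 21.1 CPM and epithelial genes to 4.46 to 7.39 CPM over the 6 lines. By sign, 2 of the 6 endothelial genes tested were higher and 4 were lower, and 2 were lower at an unadjusted p under 0.05 (background 8.77%). These were Pecam1 (0.592 and 0.189 CPM, edgeR adjusted p = 0.176) and Cdh5 (0.603 and 0.333 CPM, adjusted p = 0.260). Of 3 epithelial genes tested, 1 was higher at that threshold (background 5.88%), Krt19 (3.07 and 4.81 CPM, edgeR adjusted p = 0.310), with overlapping genotypes. By sign 2 of the 3 were higher and 1 was lower, Krt18 (1.14 and 0.253 CPM, edgeR adjusted p = 0.407). Krt18 was lower in every KO line than in any WT line. It had 0 counts in KO line 72 and was tested only through the WT lines, where it was high. The summed fibroblast list was lowest in KO line 72, the line lowest for Dnmt3a, Tet1 and Tet3. Col1a1 was the largest part of that sum, 25022 CPM. Col1a1, Col1a2, Col3a1, Pdgfra, Thy1 and Dcn were lowest in this line. Pdgfrb, Lum and Fn1 were not, and Vim was highest there, at 4494 CPM. Of the fibroblast list, 0 genes were higher and 1 lower at an unadjusted p under 0.05 (background 5.88% and 8.77%), Thy1 (846 and 683 CPM, edgeR adjusted p = 0.305). The part of these cell types in the levels of Tet2 and the other genes was not tested.

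The 10 genes were set beside 9 lists of related genes, germline genes included, 99 genes of which 87 were tested. Of the 87, 8 (9.2%) were higher and 5 (5.75%) lower at an unadjusted p under 0.05, near the background of 5.88% and 8.77%, and 0 passed after adjustment in edgeR. The unadjusted counts with DESeq2 were 10 higher and 5 lower. Among 10 maintenance cofactors, 2 were higher at an unadjusted p under 0.05 and 0 lower. These were Lig1, the replicative DNA ligase that binds UHRF1, at 31.0 ± 3.75 and 43.5 ± 2.87 CPM (SD, n = 3; log2 fold change 0.49, edgeR adjusted p = 0.132), and Pclaf, a PCNA-binding protein, at 27.2 ± 8.12 and 45.6 ± 8.85 CPM (0.75, adjusted p = 0.247). Both work at replication forks, like UHRF1. The 9 tested de novo cofactors, the 7 other methyl-CpG binders and the 12 partners of MBD2 in the NuRD complex held 0 genes at that threshold in either direction, with median log2 fold changes of -0.05, -0.07 and 0.11.

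Around the erasers, 13 genes of base excision gave 1 higher and 1 lower at an unadjusted p under 0.05 (background 5.88% and 8.77%). Lig3, a DNA ligase, was at 40.2 ± 1.14 and 45.9 ± 2.34 CPM, and Neil2, a DNA glycosylase, at 0.593 ± 0.101 and 0.238 ± 0.031 CPM (SD, n = 3; log2 fold change -1.32, edgeR adjusted p = 0.139), the latter from 17 to 57 counts. Of 11 genes of TET cosubstrate supply and TET partners, 2 were higher and 0 lower. Fh1, the fumarase that clears the TET inhibitor fumarate, was at 54.5 ± 0.108 and 64.3 ± 1.75 CPM (0.24, edgeR adjusted p = 0.135). Of 14 methyl donor genes, 2 were higher and 2 lower. Mthfd1, of folate metabolism, was at 38.3 ± 0.700 and 50.4 ± 4.99 CPM (0.40, edgeR adjusted p = 0.126), and Ahcyl2 at 60.9 ± 6.43 and 49.0 ± 5.27 CPM (-0.31, adjusted p = 0.300). Among 8 CXXC proteins, which bind unmethylated CpGs, Fbxl19 was higher (0.22) and Kmt2a lower (-0.25) at that threshold, with edgeR adjusted p of 0.228 and 0.336.

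**Figure D5:**
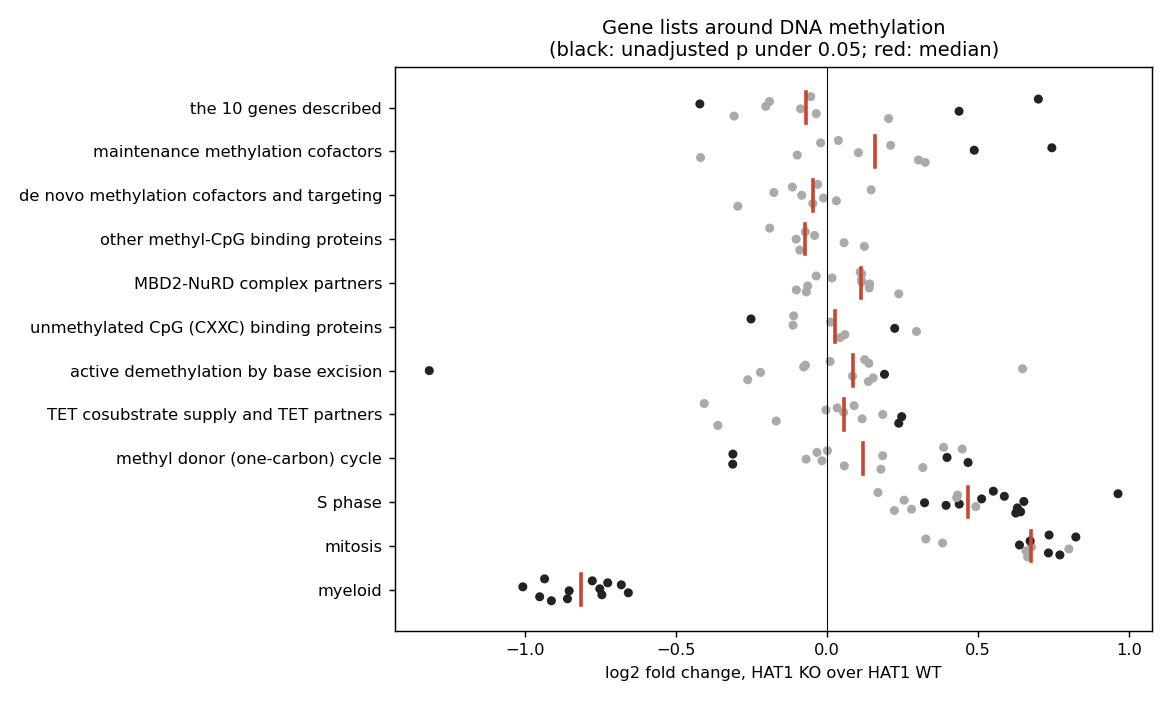
Log2 fold change, HAT1 KO over HAT1 WT, of each tested gene in the set of 10, in lists of genes that work with them and in the S phase, mitosis and myeloid lists, with genes at an unadjusted p under 0.05 in black and the list median as a red line. The lists of methylation genes have medians from -0.07 to 0.16, the S phase and mitosis lists at 0.47 and 0.68, and the myeloid list at -0.82.

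Germline genes that are silenced by promoter methylation in somatic cells were listed as well. Of 14 listed genes, 8 were in the table and 3 passed the filter. Of these, 0 were higher and 1 lower at an unadjusted p under 0.05 (background 5.88% and 8.77%). Tdrd1, a piRNA pathway gene, was at 44, 44 and 52 counts in the WT lines and at 19, 8 and 4 counts in the KO lines (log2 fold change -2.08, SE 0.51, edgeR adjusted p = 0.165). Its counts were lower in every KO line than in any WT line, and 2 of the KO lines held under 10 counts. The KO lines alone would not have passed the filter, so Tdrd1 was tested only through the WT lines, where it was high.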

How the data were processed

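RNA-seq was measured in 6 pMEF lines, grouped by the genotype in the labels, 1 library per line. The authors deposited raw counts per gene, not normalized, beside their own fold changes, mean CPM, F and p-values, which were not used. The submitters' notes name edgeR and mm10, without versions. The aligner, counter and use of strand are not given in the sources used here. Low counts were mostly even. All 17512 identifiers matched GENCODE M21, from which positions and exon lengths were taken, and 24 symbols turned into dates were restored.

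Tests used edgeR 4.0.16 under R 4.3.3 on these counts (filterByExpr defaults, TMM, glmQLFit and glmQLFTest, genotype alone, two-sided), with Benjamini-Hochberg adjustment over 14773 genes and a threshold of 0.05. Standard errors were derived from F, and intervals (95%) use the t distribution of the fit; both are approximate. Single values were compared with a two-sided exact permutation test, which cannot go below p = 0.1. Log2 CPM used a pseudocount of 0.5. Nothing says whether lines shared a litter. The members, lists and tests were chosen with earlier results of these data known. Named genes were the members, Hat1, and the 5 genes most correlated with Uhrf1. The gene with the smallest unadjusted p in each direction of each list was named if that p was under 0.05. Pclaf, Cdh5, Kdr, Krt18, Ddx4, Sycp1 and Dnmt3l were named after their values were seen. On simulated counts with 200 of 14543 genes changed, 66.5% were recovered. The planted changes were all larger than any difference measured for the members, so this share does not apply to changes of their size. Alternatives were DESeq2 1.42.0, other scalings and filters, halved counts, each line left out, and lane, Y-linked level or S phase score as a term. The longest coding transcript as length was added after seeing the data.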

Additional observations from a re-analysis of the deposited data

How the results depend on the processing

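No paired analysis was possible because the genotypes share no replicate numbers. Uhrf1 stayed higher in KO in all 15 alternatives, from 0.10 (S phase score in the model) to 1.06 (Y-linked level), with an unadjusted p under 0.05 in 14, and its edgeR adjusted p of 0.187 became 0.012 with DESeq2. Hells had p under 0.05 in 8 of 15 and Tet2 in 10 of 15. Directions reversed for Dnmt1 (-0.30) and Hells (-0.039) with the S phase score, and with a line left out for Dnmt3b (-0.22 to 0.18), Uhrf2 (-0.10 to 0.026), Tet1 (-0.49 to 0.22) and the Tet1 share (-1.54 to 1.95 percentage points); the cause was not tested.

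Members called moved as follows. Higher at adjusted p, 1 with DESeq2; higher at 1.5-fold, 0 with lane and 0 with the S phase score; lower at 1.5-fold, 1 with the Y-linked level; higher at unadjusted p, 1 with lane, 1 with the Y-linked level, 0 with the S phase score and 1 to 2 without a line; lower at unadjusted p, 0 with lane, 2 with the Y-linked level, 0 with the S phase score and 0 to 1 without a line. Pathway genes higher at unadjusted p were 3 with lane, 5 with the Y-linked level, 2 with the S phase score and 6 to 16 without a line, and lower ones 3 with no filter, 2 with a mean of at least 50 counts, 3 with the S phase score and 2 to 5 without a line.

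Over all genes, higher at adjusted p were 226 with DESeq2, 1 each with library size alone, a mean of at least 50 counts and halved counts, and 0 to 2 without a line. Lower at adjusted p were 645 with DESeq2, 46 with no filter, 2 with lane, 0 with the Y-linked level, 0 with the S phase score and 0 to 71 without a line. Higher at 1.5-fold were 60 with lane, 142 with the S phase score and 111 to 350 without a line. Lower at 1.5-fold were 515 with the Y-linked level and 426 with the S phase score. Higher at unadjusted p were 205 with lane, 644 with the Y-linked level, 239 with the S phase score and 454 to 1362 without a line. Lower at unadjusted p were 726 with lane, 792 with the Y-linked level, 523 with the S phase score and 916 to 1424 without a line. With no filter they were 1254, and with a mean of at least 50 counts 1159. The fits with lane, the Y-linked level or the S phase score tested the same 14773 genes. Depth limits Dnmt3b, Neil2, Tdrd1, Pecam1, Cdh5 and Krt18, which rest on under 200 counts per library.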

Other observations

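The other 2 germline genes that passed the filter were spread unevenly over the lines. Ddx4, a germ cell helicase, had 4, 7 and 28 counts in WT lines 36, 47 and 78 and 10, 10 and 336 counts in KO lines 33, 41 and 72. Sycp1, a meiotic chromosome protein, was counted 0, 2 and 144 times in the same WT lines, against 48, 0 and 16 times in the same KO lines. Neither passed the test (edgeR adjusted p of 0.388 for Ddx4 and 0.848 for Sycp1). The highest counts were thus those of single lines, WT line 78 for Sycp1 and KO line 72 for Ddx4, and were not shared across a genotype. For Sycp1, KO lines 33 and 72 also held more counts than WT lines 36 and 47. Dnmt3l, the inactive partner of the de novo enzymes, was counted 16, 40 and 106 times in WT, against 62, 32 and 22 times in KO.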
